A study of Mus musculus with 8 samples.

Results

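The class I and class II histone deacetylases of the mouse, Hdac1 to Hdac10, were followed in AML12 hepatocytes, a line established from the liver of a mouse that carries a transforming growth factor alpha transgene. The family was picked from the measured irisin against control changes, because Hdac2 was among the largest increases, so the change of Hdac2 is given as a description and carries no test. The members are all array features, that is probes, whose accession belongs to 1 of the 10 genes. They come to 17 features of the 39429 on the array that are not controls, and to 10 genes of the 21612 that could be named. The cells were kept for 24 h in DMEM F-12 with fetal bovine serum, either without irisin (control, 4 arrays) or with 0.5 µg/ml irisin (irisin, 4 arrays). Irisin is the secreted hormone cleaved from the muscle membrane protein Fndc5. All 8 arrays hold RNA of the same line and differ by their labels in irisin alone. The labels number 4 replicates in each group and do not state that they came from separate cultures, so the p-values measure the spread between these arrays. The control arrays lie on 1 slide and the irisin arrays on another, scanned apart, so slide and treatment cannot be told apart.

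Histone deacetylases remove the acetyl group from lysines of histone tails and of other proteins, which in chromatin usually lowers transcription. The class I enzymes Hdac1 and Hdac2 are the catalytic subunits of the Sin3, NuRD and CoREST co-repressor complexes, Hdac3 is that of the NCoR and SMRT complexes, and Hdac8 works outside these complexes and deacetylates cohesin. The class IIa members Hdac4, Hdac5, Hdac7 and Hdac9 bind MEF2 transcription factors and leave the nucleus when kinases phosphorylate them and 14-3-3 proteins hold them. In liver, class IIa enzymes respond to fasting hormones and bring Hdac3 to gluconeogenic genes, and Hdac3 itself restrains lipid synthesis. The class IIb members are Hdac6, which deacetylates tubulin in the cytoplasm, and Hdac10, which acts on acetylated polyamines.

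The RefSeq windows (GRCm38.p6) of 250 bases before the start were read for 3 members. A link between these sequences and the array values was not tested. Hdac2 (chr10:36974294-36974543, plus strand) had the largest increase of the family, Hdac6 (chrX:7947890-7948139, minus strand) had irisin values at the low side of its control values, and Hdac9 (chr12:34917096-34917345, minus strand) was not measurable on most arrays. Capitals mark matches to 3 motifs, each searched on both strands, so that the reverse complement is marked as well. One is the GC box, spelled GGGCGG. The next is the CCAAT box, spelled as its name. The last is the TATA motif in the form TATAAA.
Hdac2: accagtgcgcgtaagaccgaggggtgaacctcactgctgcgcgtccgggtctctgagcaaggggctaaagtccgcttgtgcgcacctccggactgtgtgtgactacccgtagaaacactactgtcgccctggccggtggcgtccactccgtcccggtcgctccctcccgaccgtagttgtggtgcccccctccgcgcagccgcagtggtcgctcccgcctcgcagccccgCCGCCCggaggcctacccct
Hdac6: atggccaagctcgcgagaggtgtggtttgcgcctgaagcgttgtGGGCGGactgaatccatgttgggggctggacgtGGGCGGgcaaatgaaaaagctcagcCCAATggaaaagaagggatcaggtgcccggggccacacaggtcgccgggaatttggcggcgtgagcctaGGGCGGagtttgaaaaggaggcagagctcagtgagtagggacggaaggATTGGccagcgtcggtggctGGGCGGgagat
Hdac9: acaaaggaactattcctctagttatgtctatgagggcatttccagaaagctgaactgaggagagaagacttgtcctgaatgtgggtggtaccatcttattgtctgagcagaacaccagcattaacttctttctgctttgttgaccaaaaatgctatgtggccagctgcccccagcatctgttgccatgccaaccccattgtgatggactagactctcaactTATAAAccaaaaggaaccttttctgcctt
The Hdac2 window held 1 GC box and 27 CpG dinucleotides, and 68.8% of its bases were G or C. The Hdac6 window held 4 GC boxes and 2 CCAAT boxes at 61.2% G or C. The Hdac9 window shown had neither box, no CpG, 44.4% G or C, and a TATAAA that began 29 bases before the start. Another Hdac9 window (chr12:34528890-34529139, minus strand) had neither box, no TATAAA, 2 CpG dinucleotides and 43.6% G or C. The table was read for 11 windows of 7 members, Hdac2 and Hdac4 to Hdac9, with windows on 1 chromosome left out for the members alone. Of these 11 windows, 5 held a GC box, 4 a CCAAT box and 2 TATAAA. Among all 32851 windows of the table, 32.7% held a GC box, 33.8% a CCAAT box and 12.4% TATAAA. The medians over all windows were 52.4% G or C and 6 CpG dinucleotides. The letters CACGTG, an E-box, were in no member window and in 6.02% of all windows. A match is a stretch of letters and does not show that a factor binds there.

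The 8 arrays were of like quality in most respects but not in brightness. Features well above background made up 59.5% to 63.6% of a control array and 61.8% to 64.0% of an irisin array. The 75th percentile of the signal had a mean of 472 ± 70.1 over the controls and of 783 ± 71.6 with irisin (SD, n = 4 each). Each signal was therefore divided by this percentile and taken as log2, and every level and difference below is on that scale unless stated otherwise. All 13 hepatocyte markers, from Alb to Krt18, were detected, that is well above background, on all 8 arrays. Among the stellate cell and fibroblast markers, Col1a1 was detected on all arrays and Col3a1, Pdgfrb, Des and Lrat on none. Of the endothelial markers, Pecam1 and Kdr were on all, Stab2 on some and Cdh5 on none. Of the macrophage and leukocyte markers, Cd68 and Csf1r were on all, and Adgre1, Clec4f and Ptprc on some. Of the cholangiocyte markers, Krt7, Krt19 and Sox9 were on all and Epcam on some. Tested features were those that stood well above background throughout the 4 arrays of either group. This left 24092 features of 14311 genes, and among them 15 features of 9 members, all but Hdac9.

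Hdac2, the subunit shared by the Sin3, NuRD and CoREST complexes, gave more signal on every irisin array than on any control array. Its feature (NM_008229) is printed 10 times on each array, and the mean processed signal of these spots was 24.0, 37.2, 31.3 and 34.3 on control arrays 1 to 4. On irisin arrays 1 to 4 it was 110, 66.6, 137 and 99.5. On these unscaled signals the lowest irisin array was thus irisin 2, the highest irisin 3, and the groups did not overlap. The irisin arrays were brighter as a whole, and without scaling the median difference of all tested genes was 0.67 on the log2 scale. The groups were also apart on the scaled values below, where 4.16% of all tested genes had all irisin arrays above all control arrays.

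**Figure D1:**
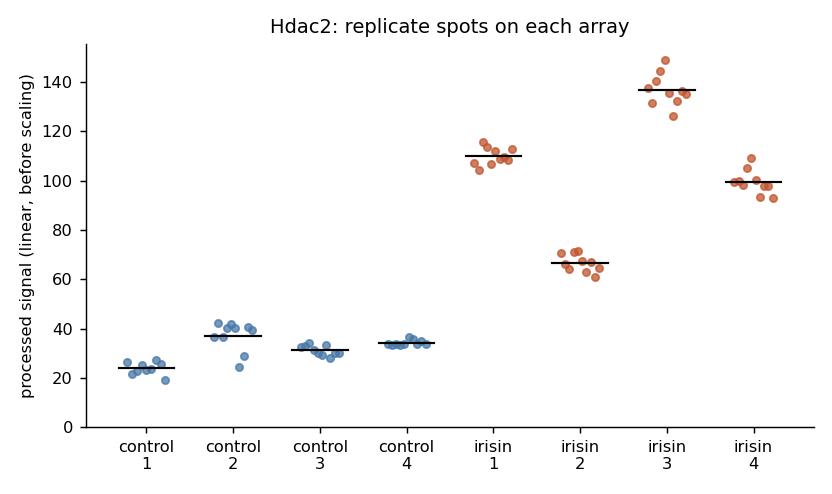
Processed signal of the Hdac2 spots on each array (y axis, linear and before scaling between arrays), with control arrays in blue, irisin arrays in orange, 1 point per spot and a line at the mean. The spots of each irisin array lie above all control spots, and the spread within an array is smaller than the spread between irisin arrays.

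The spots of 1 array differed by a coefficient of variation between 3.05% (control 4) and 15.9% (control 2). On control 2 the spots ran from 24.6 to 42.3, a spread like that of the 4 control array means. All spots of the irisin arrays lay at 61.2 or above. These spot values are before scaling, and the 75th percentile of the signal was 486 on control 2 and 682 on irisin 2. Divided by it, the mean Hdac2 signal was 0.077 on control 2 and 0.098 on irisin 2, the closest arrays of the 2 groups. The signal was low in absolute terms. The raw spots stood a median of 15 to 32.8 units above their local background on the control arrays and 58 to 122 units on the irisin arrays. The local background itself was 22.9 ± 0.63 (SD, n = 4) and 20.9 ± 1.03 (SD, n = 4). All spots were marked as well above background on all 8 arrays.

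After scaling, the Hdac2 level was -3.96, -3.71, -4.09 and -3.86 on the control arrays and -2.86, -3.35, -2.55 and -3.10 on the irisin arrays. The group means were -3.90 ± 0.16 and -2.96 ± 0.34 (SD, n = 4 each). The difference was 0.94 (limma standard error 0.16), or 1.92-fold. Before scaling, the mean signal went from 31.7 ± 5.68 to 103 ± 29.1 (SD, n = 4). Among all 14311 tested genes Hdac2 had the 10th largest difference, and the next member, Hdac1, lay 0.84 lower. Leaving out 1 array at a time moved the difference between 0.80, without irisin 3, and 1.07, without irisin 2. The value depended on the background correction. With the normexp correction, which adds an offset of 50 to signals of this size, the difference was 0.22. With an offset of 5, chosen after seeing the data, it was 0.76. In bulk RNA, more transcript per cell and more cells with the transcript cannot be told apart.

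The lowest and the highest irisin array of Hdac2 were also those of many other genes. Of the 76 genes that passed the threshold for higher, 43 were lowest on irisin 2 and 55 were highest on irisin 3 among the irisin arrays. Over all tested genes irisin 2 was the lowest in 22.7% and irisin 3 the highest in 17.0%, while irisin 2 was the highest in 50.5%. What this order owes to the treatment or to the arrays was not tested.

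The other class I enzymes did not pass the test. Hdac1, the close relative of Hdac2 in the same complexes, has 3 features. On the brightest, its level was 4.55, 4.37, 4.48 and 4.41 on the control arrays and 4.43, 4.74, 4.43 and 4.57 on the irisin arrays. The groups overlapped, and the difference was 0.094 (standard error 0.094, 95% interval -0.11 to 0.30, limma adjusted p = 0.543). The second feature differed by -0.16 (standard error 0.089, adjusted p = 0.237) and the third by 0.19 (standard error 0.13, adjusted p = 0.362). The 3 features thus did not share a sign, and their intervals, -0.36 to 0.036 for the second and -0.11 to 0.49 for the third, all stayed within 1.5-fold. Hdac3, the NCoR and SMRT enzyme, stood at 1.45, 1.34, 1.22 and 1.44 on the control arrays and at 1.12, 1.40, 0.86 and 1.15 on the irisin arrays. Only irisin 2 lay within the control values, and the difference was -0.23 (standard error 0.12, 95% interval -0.49 to 0.030, adjusted p = 0.200). Without irisin 2 it was -0.32, less than 1.5-fold, and without irisin 3 it was -0.14, and over the 8 omissions of 1 array the limma adjusted p ran from 0.0390 to 0.471. Hdac8, the cohesin deacetylase, has 2 dim features. The brighter gave -3.69, -3.60, -3.50 and -3.67 on the control arrays against -3.62, -3.55, -3.56 and -3.55 on the irisin arrays, a difference of 0.044 (standard error 0.077, 95% interval -0.13 to 0.22, adjusted p = 0.749). The dimmer differed by -0.22 (standard error 0.11, 95% interval -0.45 to 0.015, adjusted p = 0.174), so the 2 Hdac8 features had opposite signs.

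Among the class IIa enzymes, 3 of 4 could be tested and none passed. Hdac4, a MEF2 co-repressor, stood at 0.18, 0.24, 0.25 and 0.28 on the control arrays and at 0.41, 0.26, 0.098 and 0.34 on the irisin arrays. The irisin values enclosed the control values, and the difference was 0.041 (standard error 0.087, 95% interval -0.15 to 0.23, adjusted p = 0.795). Its second, dim feature differed by 0.099 (standard error 0.14, adjusted p = 0.676). Hdac5, a member whose nuclear export is driven by the AMP-activated kinase and its relatives, stood at 3.06, 2.93, 3.06 and 3.06 on the control arrays and at 2.72, 3.19, 2.79 and 2.94 on the irisin arrays. The irisin arrays again lay on both sides of the controls, with a difference of -0.12 (standard error 0.11, 95% interval -0.35 to 0.12, adjusted p = 0.507). Hdac7, best known from endothelial cells and thymocytes, stood at 4.27, 4.21, 4.09 and 4.28 on the control arrays and at 3.94, 4.43, 4.06 and 4.10 on the irisin arrays. Its difference was -0.081 (standard error 0.11, 95% interval -0.33 to 0.16, adjusted p = 0.670), and its sign turned under quantile (0.013) and cyclic loess scaling (0.040).

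Hdac9, the last class IIa member, was not tested. Its feature for NM_024124 was not well above background on any array. Its feature for NM_001271386 was well above background on control 4 alone, with a signal of 36.6. On the other control arrays that feature gave 1.02 to 1.23, and on the irisin arrays 1.08 to 1.09. The one bright array is a single spot, and no fold is given.

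The class IIb enzymes did not pass either. Hdac6, the tubulin deacetylase, stood at 2.40, 2.28, 2.30 and 2.48 on the control arrays and at 2.07, 2.31, 1.99 and 2.24 on the irisin arrays. All but irisin 2 were below the lowest control, and the difference was -0.21 (standard error 0.097, 95% interval -0.43 to 0.0020, adjusted p = 0.150). Its second feature gave nearly the same difference, -0.19 (standard error 0.096, 95% interval -0.40 to 0.026, adjusted p = 0.202), and repeated the order of the 4 irisin arrays. Without irisin 2 the second feature differed by -0.25, still less than 1.5-fold, and over the 8 omissions its limma adjusted p ran from 0.0461 to 0.437. Hdac10, the polyamine deacetylase, stood at 1.35, 1.31, 1.56 and 1.40 on the control arrays and at 1.34, 1.69, 1.40 and 1.48 on the irisin arrays. Its difference was 0.075 (standard error 0.10, 95% interval -0.15 to 0.30, adjusted p = 0.667), and its second feature gave -0.017 (standard error 0.098, adjusted p = 0.931).

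**Figure D2:**
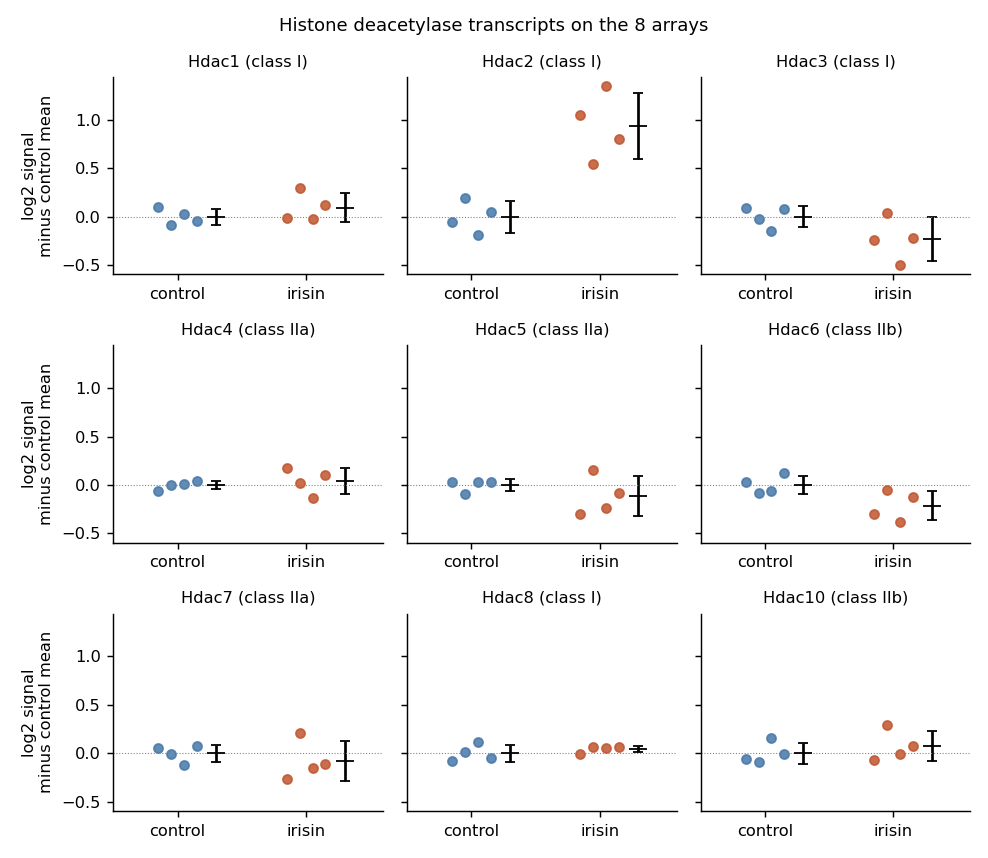
Log2 signal of the brightest feature of each tested member on each array, minus the mean of its control arrays (y axis), for control (blue) and irisin (orange), with the mean and SD of the 4 arrays in black. Hdac2 is the one panel without overlap between the groups, and irisin 2 is the highest irisin array in all panels but Hdac2 and Hdac4.

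A gene counts as called if it differed at least 1.5-fold with a limma adjusted p under 0.05, the size threshold of the study. Of the 9 tested members, 1 was called higher, Hdac2, against 0.531% of all tested genes, and since Hdac2 is the reason for the choice nothing is read from this count. None was called lower, against 10.2% of all genes, and the share of features called lower varied with signal, as given below. Of the 8 other members, 4 were higher and 4 lower on irisin, 0 were called by limma or by the unmoderated 2-group test named in the study's methods, and 0 had an unadjusted p under 0.05 by either. Counted by feature, 1 of 15 was called higher and 0 lower, against 0.714% and 11.7% of all tested features. Among the tested members the groups were apart, with all irisin arrays above all control arrays, in Hdac2 alone, against 4.16% of all tested genes. No tested member had all irisin arrays below, against 19.7%. The median difference of the 9 members was 0.041 and that of the 8 other than Hdac2 was -0.020. The median of all tested genes was -0.064.

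**Figure D3:**
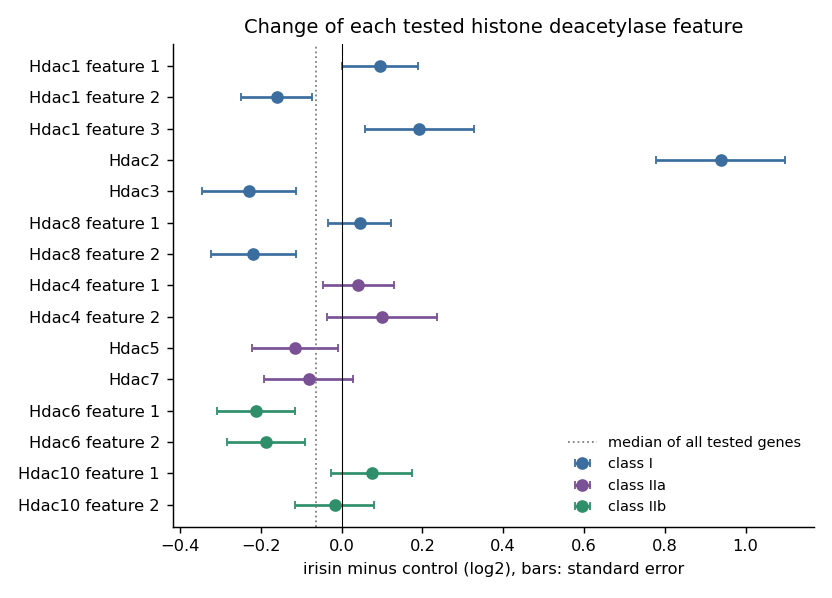
Irisin minus control difference (log2, x axis) of the 15 tested features, by class, with bars of 1 limma standard error and a dotted line at the median of all tested genes. Hdac2 lies at 0.94, and the other 14 features lie between -0.23 and 0.19.

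By class, the differences of the brightest features ranged from -0.23 to 0.94 over the 4 tested class I genes, from -0.12 to 0.041 over the 3 class IIa genes and from -0.21 to 0.075 over the 2 class IIb genes. Where a gene had several tested features, as 5 members did, the features were of 1 sign in Hdac4 and Hdac6 and of both signs in Hdac1, Hdac8 and Hdac10.

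The size of a difference varied with signal over the whole array, and the members were set beside features of like signal, in 10 bins of equal size from dim to bright. Of the features in bin 1, 45.1% were called lower, against 8.92% in bin 4 and 0.208% to 2.24% in bins 7 to 10. Bins 7 to 10 hold the brightest feature of each tested member but Hdac2 and Hdac8, which lie in bin 4. In bin 4, which holds Hdac2, the median difference was -0.053, the 5th percentile -0.68 and the 95th percentile 0.39. Hdac2 exceeded 99.7% of the features of its bin. In bin 10, the brightest, the median was -0.20, and the bright Hdac1 feature, at 0.094, exceeded 97.8% of the features there. Hdac3 and the brighter Hdac6 feature were at the other end, above 9.71% and 8.01% of the features in their bins. These are places in a distribution, not tests.

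**Figure D4:**
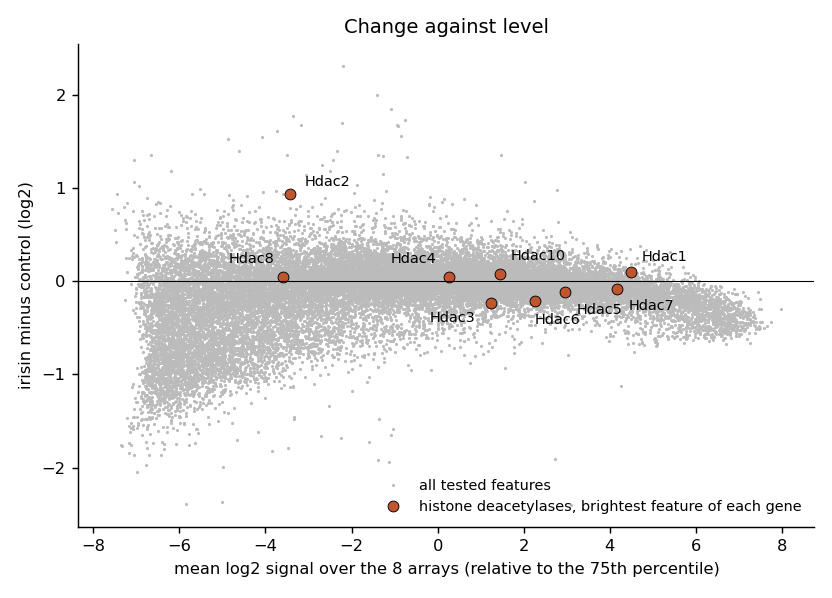
Irisin minus control difference (log2, y axis) against the mean log2 signal over the 8 arrays relative to the 75th percentile (x axis) for all 24092 tested features in grey and the brightest feature of each tested member in orange. Dim features spread downward, and Hdac2 at 0.94 lies above nearly all features of like signal.

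The sign of the small differences changed with the scaling, and the irisin arrays were brighter as a whole. Scaled to the spike-in features, the median of all genes became 0.51 and that of the members 0.62, and without scaling they became 0.67 and 0.78. Hdac3 and Hdac6, lower under the 75th percentile, were then higher, at 0.35 and 0.36 with spike-in scaling. Under quantile and cyclic loess scaling Hdac2 stood at 1.08 and 1.10. Relative to the median of all genes, Hdac3 and Hdac6 stayed below and Hdac2 above in each of these settings.

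**Figure D5:**
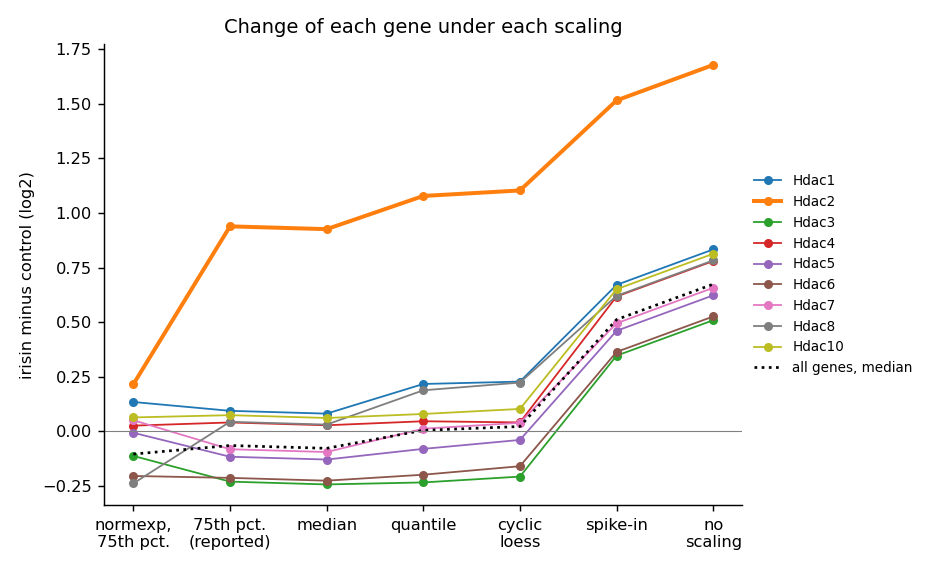
Irisin minus control difference (log2, y axis) of each tested member's brightest feature under 7 ways of background correction or scaling (x axis), with the median of all tested genes as a dotted line. Hdac2 is the uppermost of these lines in each setting, at 0.22 with normexp and 1.68 without scaling, and from the 75th percentile to no scaling the lines keep close to the course of the dotted one.

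The genes that work with these enzymes were read from lists of complexes and regulators. Of 93 such genes 88 were tested, and 1 was called higher and 2 lower by limma, beside the shares of 0.531% and 10.2% over all genes. Their median difference was -0.032. With an unadjusted p under 0.05, 8 were higher and 10 lower, against 5.94% and 23.6% of all tested genes.

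Of the co-repressor complexes that hold Hdac1 and Hdac2, no subunit was called by limma or by the unmoderated test. In the Sin3 list (13 tested, 3 higher and 0 lower at an unadjusted p under 0.05), the highest value was that of Sap30, a Sin3-binding subunit, with 0.36 (standard error 0.090, adjusted p = 0.0129, below 1.5-fold). The lowest value there was Arid4b, a chromatin-binding subunit, with -0.39 (standard error 0.26, adjusted p = 0.334), or -0.17 without irisin 2. In the NuRD list (12 tested, 1 higher and 1 lower unadjusted), the methyl-CpG-binding Mbd2 stood at 0.25 (adjusted p = 0.0870) and the remodeller Chd4 at -0.19 (adjusted p = 0.0991). In the CoREST list (8 tested, 1 higher and 0 lower unadjusted), the scaffolds Rcor3 and Rcor1 marked the ends, with 0.32 (adjusted p = 0.140) and -0.20 (adjusted p = 0.419). Without irisin 3 they stood at 0.20 and -0.071, and without irisin 1 Rcor1 stood at -0.32. In the complexes of Hdac3, the 5 NCoR/SMRT subunits lay between -0.013 (Gps2, adjusted p = 0.948) and 0.044 (Tbl1x, adjusted p = 0.826), and 0 had an unadjusted p under 0.05. The MiDAC and MIER list (5 of 6 tested, Trerf1 not) had 0 called and 1 lower unadjusted.

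Around the class IIa enzymes, 2 of the 22 tested genes (9.09%) were called lower, a share near the 10.2% of all genes. Among kinases that phosphorylate them (13 of 15 tested, Prkd1 and Camk4 not), Camk2a, a calcium-dependent kinase typical of neurons, fell by 1.13 on the log2 scale (standard error 0.18, limma adjusted p = 0.00109), from -2.87 ± 0.13 to -4.00 ± 0.42 (SD, n = 4). Its second feature differed by -0.27, and with spike-in scaling its difference was -0.56 and no longer called. In its signal bin, bin 4, 8.92% of features were called lower. Among the 14-3-3 proteins (7 tested, 0 higher and 4 lower unadjusted), Sfn, the epithelial sigma form, fell by 1.01 (standard error 0.13, limma adjusted p = 0.000303), from -4.74 ± 0.22 to -5.74 ± 0.17 (SD, n = 4). With spike-in scaling Sfn stood at -0.43 and was not called, and in its bin, the dim bin 2, 34.3% of features were called lower. Over all tested genes 23.6% were lower at an unadjusted limma p under 0.05. Ywhae, Ywhah and Ywhaq, the others counted as lower, differed by -0.33, -0.28 and -0.23. They lie in bin 10, the brightest, where the median difference was -0.20 and the 5th percentile -0.54. The counts for the 14-3-3 proteins rest on the brightest feature of each gene. The 3 tested Ywhaz features ran from -0.070 to 0.88, and the 5 tested Ywhaq features from -0.27 to 0.16. Of the MEF2 factors, Mef2a and Mef2d were tested and gave -0.14 and -0.061 (adjusted p = 0.376 and 0.684), while Mef2b and Mef2c failed the filter.

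On the acetylating side, Kat2b, the acetyltransferase also called PCAF, rose by 0.83 (standard error 0.11, limma adjusted p = 0.000424), from -1.71 ± 0.10 to -0.88 ± 0.21 (SD, n = 4). With the normexp correction it stood at 0.58, short of 1.5-fold. It was the 1 called of 12 acetyltransferases, of which 3 were higher and 1 lower unadjusted. The class III and IV deacetylases, Sirt1 to Sirt7 and Hdac11, ranged from -0.19 to 0.048 (8 tested, 0 called, 1 lower unadjusted).

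The genes most like Hdac2 over the 8 arrays were sought by the root mean square difference of their log2 values, each centred on its control mean, among 13704 genes. They were Pcf11, a subunit of the machinery that cuts mRNA at its end (0.138), Fndc3a, a fibronectin type III domain protein (0.162), Dars, the cytoplasmic aspartyl-tRNA synthetase (0.172), Foxn2, a forkhead factor (0.174), and Insr, the insulin receptor (0.180). Their differences were 0.91, 0.79, 0.87, 0.75 and 0.76, in that order. With the normexp correction, Pcf11 stood at -0.033, Fndc3a at 0.47, Dars at 0.56, Foxn2 at 0.61 and Insr at 0.42. No member of the family and no gene of the complex lists was among them. The likeness is a description of these 8 arrays, which all the genes share.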

How the data were processed

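Gene expression was measured with one-color Agilent arrays in 4 control and 4 irisin samples, grouped by the labels. The authors deposited signal intensity from Agilent Feature Extraction 12.0.3.1, background-subtracted and on a linear scale, with no normalization between arrays stated. A table of the same intensity values was also deposited. Spots marked as outliers (at most 0.463% of an array) were left out, the spots of a feature were averaged, and the log2 signal was set against the 75th percentile of each array. Features were named by accession through the RefSeq table of GRCm38.p6. Because the files give positions on mm9, no positions of features are printed. The brightest feature stood for its gene. Differences were fitted with limma 3.58.1 in R 4.3.3 (lmFit and eBayes) over all 24092 tested features, with Benjamini-Hochberg adjustment. The unmoderated ANOVA of the study's methods, other normalizations, filters, a replicate block and leaving out each array were alternatives. The fit was tested on simulated data. In the normexp alternative, 12 spots with a local background over 100 units brighter than the spot were left out, as decided after seeing the data. The number of arrays limits the precision.

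All 10 members were named with every feature, together with the called genes of the lists, the highest and lowest gene of each co-repressor list and the 5 genes most like Hdac2. The members and lists were chosen with earlier results of these data known.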

Additional observations from a re-analysis of the deposited data

Results flagged for a closer look

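A single array stood apart from the other 3 of its group in 4 of the 36 groups of levels checked by the Dixon ratio, and chance gives about 1 in 20. The dim Hdac4 feature was at -4.25 on irisin 1 and between -4.63 and -4.57 on the other irisin arrays. Hdac5 was at 2.93 on control 2 and at 3.06 on each of the other controls, a gap of little size. The brighter Hdac8 feature was at -3.62 on irisin 1, with the others between -3.56 and -3.55. The Hdac9 feature for NM_001271386 was at -3.76 on control 4 and between -9.03 and -8.36 on the other controls.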

How the results depend on the processing

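Hdac2 stayed higher in all 22 alternatives run. With normexp at an offset of 50 it differed by 0.22, and 0 members were called higher. The alternatives reuse the arrays by which Hdac2 was picked, so its change in them is a description and carries no test. Spots of 15 to 32.8 units above background on the control arrays are small beside that offset, and with the added offset of 5 the difference was 0.76. The members called higher numbered 5 with spike-in scaling (Hdac1, Hdac2, Hdac4, Hdac8 and Hdac10) and 7 without scaling, which adds Hdac5 and Hdac7, when 33.4% and 66.8% of all genes were called higher. No setting called a member lower. The median of the members became 0.62 and 0.78 with these settings, and the genes of the lists called became 36 and 67. Without the filter on dim features 6 were called, Mef2b, Mef2c and Prkd1 being added, when 29.4% of all genes were called.

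Signs turned with spike-in scaling and without scaling as follows: Hdac1 feature 2 to 0.42 and 0.58, Hdac3 to 0.35 and 0.51, Hdac5 to 0.46 and 0.62, Hdac6 to 0.36 and 0.53 (second feature 0.39 and 0.55), Hdac7 to 0.49 and 0.66, the dim Hdac8 feature to 0.36 and 0.52, the second Hdac10 feature to 0.56 and 0.72, Arid4b to 0.19 and 0.35, Chd4 to 0.38 and 0.54, Rcor1 to 0.38 and 0.54, and Gps2 to 0.56 and 0.72. Normexp turned the dim Hdac4 feature to -0.34, Hdac7 to 0.051, the brighter Hdac8 feature to -0.24 and Pcf11 to -0.033. With normexp the limma adjusted p was 0.0109 for this Hdac4 feature and 0.0429 for this Hdac8 feature. The dim Hdac8 feature was then at -0.43 (limma adjusted p = 0.00185). The brightest Hdac1 feature had a limma adjusted p of 0.0382 with quantile and 0.0298 with cyclic loess scaling, and the brighter Hdac8 feature 0.0422 with loess. All of these were below 1.5-fold. Quantile and cyclic loess scaling turned Hdac7 to 0.013 and 0.040 and the dim Hdac8 feature to 0.11 and 0.14, and loess turned Gps2 to 0.012.

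Leaving out 1 array kept the calls (1 member higher, 0 lower, 3 list genes) and gave a member median of -0.0029 to 0.045. The ranges that crossed 0 were -0.0029 to 0.10 for Hdac4 and -0.026 to 0.16 for its dim feature, -0.088 to 0.034 for the second Hdac10 feature, -0.041 to 0.0999 for Tbl1x and -0.056 to 0.075 for Gps2. The replicate numbers do not pair the arrays, since same-numbered arrays deviated together with correlations of 0.11, -0.35, -0.13 and 0.17, and with the replicate block Hdac2 differed by 0.94 and 1 member was called higher.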
